A study of Homo sapiens with 54 samples.

Results

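The integrin and laminin subunits measured here were 35 genes of the 19720 that the probes of a human gene expression array named through a RefSeq accession. They comprised 25 integrin subunits (17 alpha and 8 beta chains) and 10 laminin subunits (5 alpha, 3 beta and 2 gamma chains), and were chosen by name alone, with 1 probe taken for each gene. Where a gene had several probes, which was the case for 6 of the 35, the probe with the highest mean signal was used. All levels below are log2 signal minus the 75th percentile of the array, so that 0 is the 75th percentile itself and a difference of 1 is a 2-fold change. Each level is the mean of the 2 arrays of a culture, and since probes differ in brightness, levels were compared between cultures and not between genes.

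The study asked whether FGFC, a chimeric fibroblast growth factor, could stand in for basic FGF (bFGF) in the culture of human pluripotent stem cells, and its 54 arrays came from 27 cultures. H1 is a human embryonic stem cell (hESC) line that was grown in E8 Medium on Matrigel with 100 ng/mL of growth factor. In 3 numbered experiments, H1 ESCs in E8 Medium were sampled as a pre-culture kept on bFGF and again 4 days later, when they had received bFGF, FGFC or no FGF. Long-term cultures compared bFGF with FGFC in 5 systems, each beside its own pre-culture with bFGF. These systems were H1 in E8 Medium (30 days, 100 ng/mL), H1 in MEF-conditioned medium on Matrigel (41 days, 5 ng/mL), the hESC line KhES-1 on MEF feeder cells (30 days, 5 ng/mL), the human induced pluripotent stem cell (hiPSC) line 201B7 on MMC-MEF feeder cells (50 days, 10 ng/mL) and the hiPSC line 253G1 in E8 Medium (36 days, 100 ng/mL). One further H1 culture had been differentiated through embryoid bodies without FGF. Each long-term arm and the differentiated state were represented by 1 culture, all 4 lines are established lines, and the H1 comparisons therefore rest on a single line.

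Integrins are cell surface receptors made of 1 alpha and 1 beta chain, which bind the extracellular matrix outside the cell and, through talin and kindlin, the actin cytoskeleton inside it. Laminins are the cross-shaped trimers of an alpha, a beta and a gamma chain that form the core of basement membranes. Human pluripotent stem cells attach to laminin mainly through integrins that contain ITGB1, with ITGA6 as the best known partner, and they secrete laminins built from LAMA5, LAMB1 and LAMC1.

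Of the 35 subunits, 21 (14 integrins and 7 laminins) gave a signal well above background on all 54 arrays. At the other end, 6 integrin chains did so on 10 arrays or fewer. These were ITGA8, ITGAL and ITGB2 on 3 arrays each, ITGB3 and ITGB6 on 2 arrays each, and ITGAX on 10 arrays. ITGAL, ITGAX and ITGB2 are known from leukocytes, and ITGB3 from platelets. Not all chains of these cells were dim. ITGA2B, a platelet chain, was well above background on all 54 arrays, and ITGAM, a leukocyte chain, on 36. The arrays as a whole had 56.2% to 79.2% of their probes well above background and no saturated probe. The label of the differentiated culture held against marker genes. The summed level of 6 measured pluripotency markers (POU5F1, NANOG and others) was 8.00 to 9.62 in the other 26 cultures and 4.89 in the differentiated culture. These 26 are called undifferentiated below. They include the cultures without FGF, in which NANOG and POU5F1 were lower than with bFGF.

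**Figure D1:**
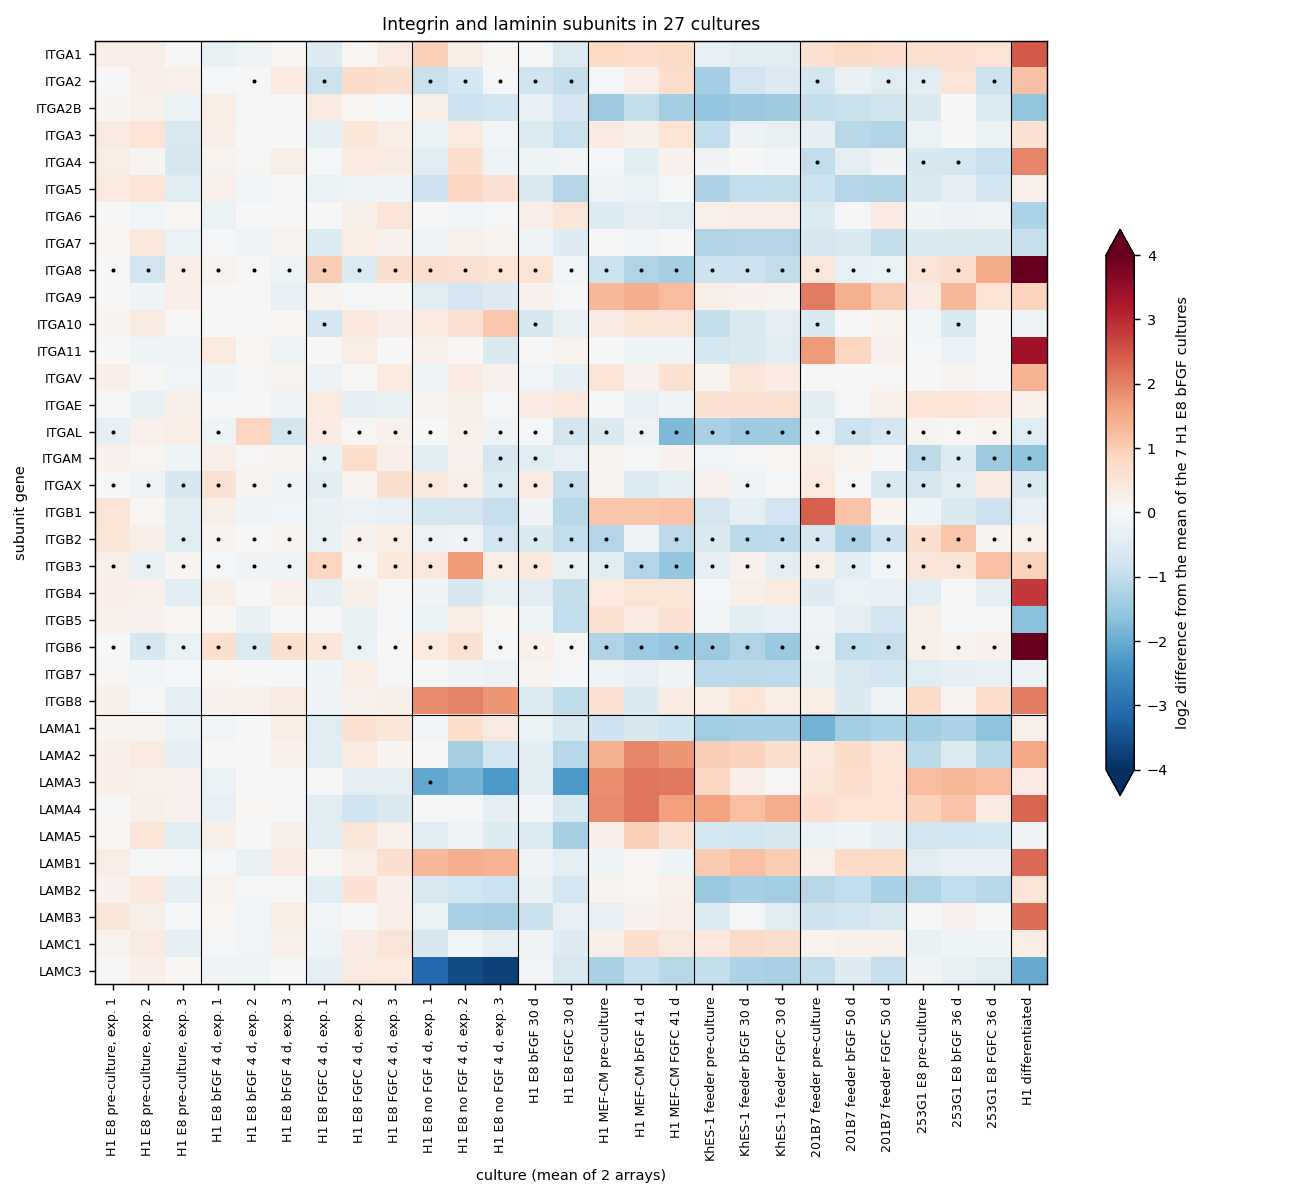
Level of each of the 35 subunit genes (vertical axis) in each of the 27 cultures (horizontal axis), drawn as the log2 difference from the mean of the 7 H1 cultures in E8 Medium with bFGF, in red where higher and in blue where lower, with a dot where neither array of the culture was well above background. LAMC3 and LAMA3 were low and ITGB8 and LAMB1 were high in the 3 cultures without FGF, and ITGA8, ITGB6 and ITGA11 were far higher in the differentiated culture than in any other.

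After 4 days without FGF, laminin chains and, in a smaller share, integrin chains differed in H1 ESCs. Against bFGF, LAMC3, LAMA3 and LAMB3 fell, LAMB1 rose, and among the integrin chains ITGB8 rose and ITGB1 fell. Together these were 6 of 35 subunits at an adjusted p below 0.05 (limma, Benjamini-Hochberg over all probes), 2 higher and 4 lower, where 12.7% of all 42405 probes passed the same threshold (5.54% higher and 7.19% lower). By family, 4 of 10 laminin chains (40.0%) and 2 of 25 integrin chains (8.0%) passed, the integrin share lying below the 12.7% of all probes. The difference between the family shares was not tested. The median difference was -0.64 over the laminins and -0.01 over the integrins, beside 0.01 over all probes. The p-values measure the spread between the 3 numbered experiments of 1 line.

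LAMC3, a gamma chain with a narrower distribution than LAMC1, gave the widest separation. It stood at 1.49, 1.46 and 1.66 with bFGF in experiments 1, 2 and 3, at 1.25, 2.00 and 2.01 with FGFC, and at -1.48, -1.96 and -2.10 without FGF. All 3 cultures without FGF lay below every other undifferentiated culture of the study, whose lowest level was 0.32. The difference from bFGF was -3.38 (SE 0.23, a 10.4-fold fall, adjusted p = 6.345e-06, limma) and that from FGFC was -3.60 (a 12.1-fold fall, adjusted p = 5.38e-06, limma). The 2 other LAMC3 probes gave differences from bFGF of -3.61 and -1.55, the latter being well above background on 25 arrays. LAMC1, the gamma chain of most laminins, was at 1.89, 1.86 and 2.17 with bFGF and at 1.31, 1.84 and 1.61 without FGF, and did not pass the test (difference -0.38, adjusted p = 0.3714, limma).

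LAMA3 and LAMB3 encode an alpha and a beta chain of the laminin that anchors epithelia to their basement membrane. LAMA3 was at -2.90, -2.64 and -2.61 with bFGF, at -2.62, -2.98 and -3.04 with FGFC, and at -4.73, -4.52 and -4.92 without FGF. The groups did not overlap, and the difference was -2.01 against bFGF (SE 0.18, adjusted p = 3.136e-05, limma) and -1.84 against FGFC (adjusted p = 6.364e-05, limma). Only 2 of the 6 arrays without FGF were well above background for LAMA3, so its level there is close to what the arrays can measure. With normexp background correction, which compresses dim signals, LAMA3 fell by 0.77 against bFGF, still past the threshold (adjusted p = 0.0003025, limma).

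LAMB3 was at -2.34, -2.53 and -2.14 with bFGF, at -2.54, -2.41 and -2.17 with FGFC, and at -2.68, -3.73 and -3.77 without FGF. The groups did not overlap, but in experiment 1 the level without FGF was only 0.35 below bFGF, against 1.20 and 1.63 below it in experiments 2 and 3. The 30-day bFGF culture of H1 in E8 Medium was at -3.33, below that culture without FGF of experiment 1. The mean difference was -1.06 (SE 0.28, adjusted p = 0.0318, limma) against bFGF and -1.02 (adjusted p = 0.04247, limma) against FGFC. The LAMB3 call did not hold without experiment 2 (adjusted p = 0.2077 against bFGF) or without experiment 3 (adjusted p = 0.4103, limma). With normexp correction it was also lost (adjusted p = 0.05682, limma).

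LAMB1, the beta chain of the laminins of the early embryo, moved the other way. It was at 2.27, 2.01 and 2.66 with bFGF, at 2.36, 2.63 and 2.97 with FGFC, and at 3.64, 3.79 and 3.70 without FGF, with no overlap between the cultures without FGF and the others. It was 1.40 higher than with bFGF (SE 0.22, a 2.63-fold rise, adjusted p = 0.001441, limma) and 1.06 higher than with FGFC (adjusted p = 0.008924, limma). Leaving out experiment 2 ended the call against bFGF (adjusted p = 0.06722), and leaving out any 1 experiment ended that against FGFC (adjusted p = 0.06988 to 0.1374, limma). Of the other beta chain, LAMB2, known from kidney and nerve-muscle basement membranes, the levels were 3.98, 3.80 and 3.88 with bFGF and 3.24, 3.07 and 2.99 without FGF, which did not overlap but missed the threshold (difference -0.79, adjusted p = 0.08415, limma).

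The sequence upstream of the laminin genes that moved is shown for LAMA3 and LAMB3, which fell, and for LAMB1, which rose, because FGF signalling is known to act in part through AP-1 and ETS transcription factors. RefSeq promoter entries of build GRCh38.p14 were matched for 25 of the 35 subunits (32 entries, of which the 250 bases before the start were searched on both strands). No entry was matched for LAMC3, ITGA3, ITGA7, ITGA9, ITGAL, ITGAX, ITGB2, ITGB3, ITGB4 and LAMA1. The AP-1 letters TGANTCA were present in 2 of the 32 entries, those of LAMA3 and 1 start of LAMB3, and in 6.57% of all 35116 promoters. In LAMA3 they began 125 and 69 bases before the start, and in LAMB3 67 bases before it, as shown in capitals. The LAMA3 start and this LAMB3 start each lie inside the gene, downstream of its first start. For LAMA3 no entry of the first start was matched, and which start gave the RNA that its probe measured was not tested. The other 2 of the 3 LAMB3 entries held no AP-1 letters. The ETS letters CCGGAAG were present in 3 of the 32 entries (ITGA6, ITGB5 and LAMA5) and in 8.52% of all promoters. The LAMB1 window, printed whole for comparison, held neither set of letters. The 250 bases of LAMA3 lie at chr18:23872770-23873019 on the plus strand, those of LAMB1 at chr7:108003162-108003411 on the minus strand, and the 29 bases of LAMB3 at chr1:209651424-209651452 on the minus strand, each before 1 of the starts RefSeq gives the gene. These matches are letters in a window and not measured binding sites.
LAMA3: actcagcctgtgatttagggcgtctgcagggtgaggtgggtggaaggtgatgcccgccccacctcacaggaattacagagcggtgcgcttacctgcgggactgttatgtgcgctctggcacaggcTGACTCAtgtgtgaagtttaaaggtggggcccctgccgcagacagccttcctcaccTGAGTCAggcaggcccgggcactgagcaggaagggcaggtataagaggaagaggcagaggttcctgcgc
LAMB3: gtcagccactcTGACTCAttcactttggg
LAMB1: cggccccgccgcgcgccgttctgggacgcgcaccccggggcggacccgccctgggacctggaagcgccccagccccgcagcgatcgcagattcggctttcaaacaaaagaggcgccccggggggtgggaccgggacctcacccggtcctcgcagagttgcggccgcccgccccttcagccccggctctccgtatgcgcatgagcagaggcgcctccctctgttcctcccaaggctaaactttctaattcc

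Among the integrin chains, ITGB8 had the clearest response. ITGB8 pairs with ITGAV, and the pair is known for binding and activating latent TGF-beta. Its level was -2.76, -2.73 and -2.56 with bFGF, -3.06, -2.77 and -2.69 under FGFC, and -1.05, -0.94 and -1.16 without FGF. The 3 cultures without FGF lay above all 23 undifferentiated cultures that had received an FGF, of which the highest stood at -2.14. The rise was 1.63 against bFGF (SE 0.18, adjusted p = 0.0001797, limma) and 1.79 against FGFC (adjusted p = 0.0001137, limma). Its partner ITGAV was at 1.43, 1.56 and 1.74 with bFGF and at 1.44, 1.95 and 1.77 without FGF, with overlapping groups (difference 0.15, adjusted p = 0.7033, limma).

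ITGB1 is the beta chain shared by most laminin, collagen and fibronectin receptors. Its level was 1.38, 1.00 and 1.02 with bFGF, 0.83, 0.91 and 0.80 under FGFC, and 0.42, 0.46 and 0.20 without FGF. Among these 4-day cultures, those without FGF were the lowest, those with FGFC in between and those with bFGF the highest, without overlap. This order did not hold over the wider series. The pre-culture of experiment 3, kept on bFGF, was at 0.72, below the FGFC cultures. Long-term FGFC cultures were at 0.03 (H1, E8 Medium), 0.27 (253G1) and 0.38 (KhES-1), within or below the range without FGF. Those of 201B7 (1.29) and of H1 in MEF-conditioned medium (2.27) lay above it. The fall of 0.77 against bFGF passed the threshold narrowly (SE 0.23, adjusted p = 0.04713, limma), while the difference from FGFC of -0.49 (adjusted p = 0.2309) and that between FGFC and bFGF of -0.28 (adjusted p = 0.9998, limma) did not. Leaving out any 1 of the 3 experiments ended the ITGB1 call (adjusted p = 0.1329 to 0.2478, limma). ITGA6, its partner for laminin binding, hardly differed, at 2.13, 2.40 and 2.43 with bFGF and 2.33, 2.27 and 2.32 without FGF (difference -0.01, 95% interval within 2-fold in either direction).

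Against FGFC, 5 of 35 subunits passed, the 6 above without ITGB1 (2 higher and 3 lower, where 10.8% of all probes passed, 4.71% higher and 6.07% lower). By family these were 4 of 10 laminin chains (40.0%) and 1 of 25 integrin chains (4.0%, below the share of all probes). The cultures without FGF were shared by both comparisons. Against bFGF, the remaining 29 subunits had differences from -0.79 (LAMB2) to 0.98 (ITGB3, which was not well above background in most of these cultures), and 16 of all 35 had a 95% interval within 2-fold in both directions. In experiments 1 and 3 the arrays without FGF and with bFGF were on the same slide, and the within-experiment differences there were -2.98 and -3.76 for LAMC3, -1.83 and -2.31 for LAMA3, 1.71 and 1.40 for ITGB8, 1.37 and 1.04 for LAMB1 and -0.96 and -0.81 for ITGB1. In experiment 2 the cultures without FGF shared a slide with FGFC, and there LAMC3 differed by -3.96, LAMA3 by -1.53, ITGB8 by 1.83, LAMB1 by 1.16 and ITGB1 by -0.46.

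**Figure D2:**
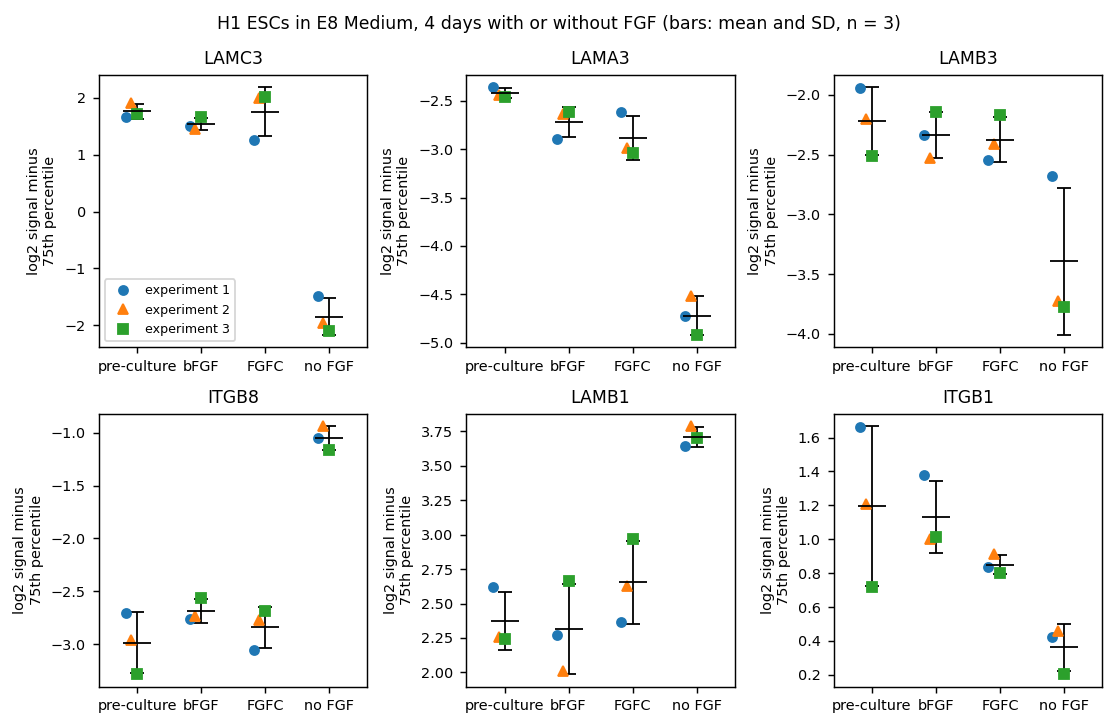
Level (log2 signal minus the 75th percentile of the array) of the 6 subunits that passed the test in H1 ESCs cultured in E8 Medium, as pre-culture and after 4 days with bFGF, FGFC or no FGF. Each point is 1 culture, the marker shows its experiment, and bars are the mean and SD of 3 cultures. LAMC3, LAMA3, LAMB3 and ITGB1 were lowest and ITGB8 and LAMB1 highest without FGF, and for LAMB3 the point of experiment 1 lies closest to the cultures with FGF.

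The wider set of matrix and adhesion genes also moved in both directions. Of 20 basement membrane components and other integrin ligands, 5 rose and 1 fell without FGF against bFGF. The largest rises were those of FBN2 (2.89, adjusted p = 0.0002495), TNC (2.03, adjusted p = 0.009543) and FBN1 (1.84, adjusted p = 0.000805, limma), 2 fibrillins and the matrix protein tenascin, although FBN1 was well above background on only 1 of 6 bFGF arrays and 4 of 6 arrays without FGF. SPARC fell by 1.31 (adjusted p = 0.00321, limma). Of 24 genes of the adhesion complex and of laminin receptors that are not integrins, 4 rose and 3 fell. The kindlin FERMT2 rose by 1.64 (adjusted p = 0.0001049) and the parvin PARVA by 1.22 (adjusted p = 0.01256), while CD9, a tetraspanin that associates with ITGB1 integrins, fell by 2.41 (adjusted p = 9.322e-05, limma). Against FGFC, 4 of 20 ligands (3 higher and 1 lower) and 8 of 24 adhesion genes (4 higher and 4 lower) passed.

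Marker genes of other cell states moved with these changes. Of 4 neuronal markers 3 rose (MAP2 by 2.65, STMN2 by 1.83 and TUBB3 by 1.73), and their summed level was 4.91 to 5.18 without FGF against 3.15 to 3.48 with bFGF and 3.19 to 3.52 with FGFC, with TUBB3 the brightest in every one of these cultures. TUBB3 was as high in cultures with an FGF, at 4.97 to 5.40 in H1 in MEF-conditioned medium beside 4.66 to 4.82 without FGF. MAP2 was not, at -2.24 to -0.71 in that medium beside 2.04 to 2.78 without FGF. The fourth marker, DCX, was at -2.86, -0.98 and -1.36 without FGF against -0.47, -0.86 and -0.70 with bFGF, a difference of -1.06 that did not pass (adjusted p = 0.1068, limma). Of 6 pluripotency markers, NANOG fell by 1.71 and POU5F1 by 1.08 while SOX2 rose by 1.32. Fibroblast markers had 0 of 12 higher and 2 lower (THY1 and PDGFRB), with a summed level of 4.46 to 4.84 against 5.69 to 5.88 with bFGF. Of 5 endothelial markers VWF rose by 4.04 and KDR fell by 4.17, muscle markers had 1 higher and 1 lower of 5, leukocyte, platelet and surface epithelium markers had 1 lower each of 6, 4 and 5, and liver and yolk sac markers had none of 4. The part of these shifts in the subunit changes was not tested. In RNA from whole cultures, fewer cells that express a gene and less of its RNA per cell cannot be told apart.

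With FGFC in place of bFGF, no subunit differed past the threshold after 4 days or in the long term. After 4 days 0 of 35 subunits and 0.0% of all probes passed (limma), with 1 subunit and 1262 probes at an unadjusted p below 0.05. The differences ran from -0.49 (LAMA4) to 0.59 (ITGB3), and the 95% interval lay within 2-fold in both directions for 32 of 35 subunits, the exceptions being ITGA5, ITGA8 and ITGB3. The subunit at an unadjusted p below 0.05 was LAMA4, an alpha chain of vessel and mesenchymal basement membranes. LAMA4 stood at -3.15, -2.74 and -2.88 with bFGF and at -3.26, -3.60 and -3.40 with FGFC, without overlap (difference -0.49, adjusted p = 0.9998, limma). The 5 subunits called without FGF against both factors had FGFC minus bFGF differences of 0.22 (LAMC3), -0.16 (LAMA3), -0.15 (ITGB8), 0.34 (LAMB1) and -0.04 (LAMB3), each with an interval within 2-fold.

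Over the 5 long-term systems, 0 of 35 subunits and 0.0% of all probes passed (limma, with the system as a block), with 4 subunits and 2508 probes at an unadjusted p below 0.05. The differences ran from -0.53 (ITGB1) to 0.26 (ITGA10), and the interval lay within 2-fold for 33 of 35 subunits, the exceptions being ITGAL and LAMA3. The 4 subunits were ITGB1, LAMA2, ITGA9 and LAMC3, each at an adjusted p of 0.704 (limma). The ITGB1 difference was -0.97 in 201B7, -0.97 in the E8 cultures of H1, -0.40 in KhES-1, -0.30 in 253G1 and 0.01 in MEF-conditioned medium. LAMA2, an alpha chain of muscle basement membranes, was lower with FGFC in all 5 systems, with differences of -0.69 to -0.21. The bFGF and FGFC arrays shared a slide in 201B7 and in 253G1. They were on different slides in KhES-1 and in both H1 systems.

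The single largest long-term difference among the laminins was in LAMA3 in H1 ESCs cultured in E8 Medium. LAMA3 was at -3.06 after 30 days with bFGF and at -4.95 with FGFC, which is next to the -4.52 to -4.92 of the 4-day cultures without FGF, and both its arrays were well above background. The other systems showed differences of -0.05 to -0.21. LAMC3 and ITGB8 did not stand near their levels without FGF in the same FGFC culture, at 1.04 and -3.95. LAMB3 there was at -2.74, above the bFGF culture at -3.33. In this pair 28 of 35 subunits were lower with FGFC, with a median difference of -0.39, while the medians of the other 4 systems were -0.08 to -0.0048. The median level of all probes was also lower in this pair, at -3.03 on both FGFC arrays against -2.91 and -2.90 on the bFGF arrays. The study listed more probes as reduced than as increased by 2-fold or more with FGFC in this pair. The share of all probes that were lower was not counted here, so whether the skew is particular to the subunits was not tested. Each arm was 1 culture, so these differences carry no replicate check. The bFGF arrays of this pair were on slide 1 and the FGFC arrays on slide 8, so slide and growth factor cannot be told apart here.

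**Figure D3:**
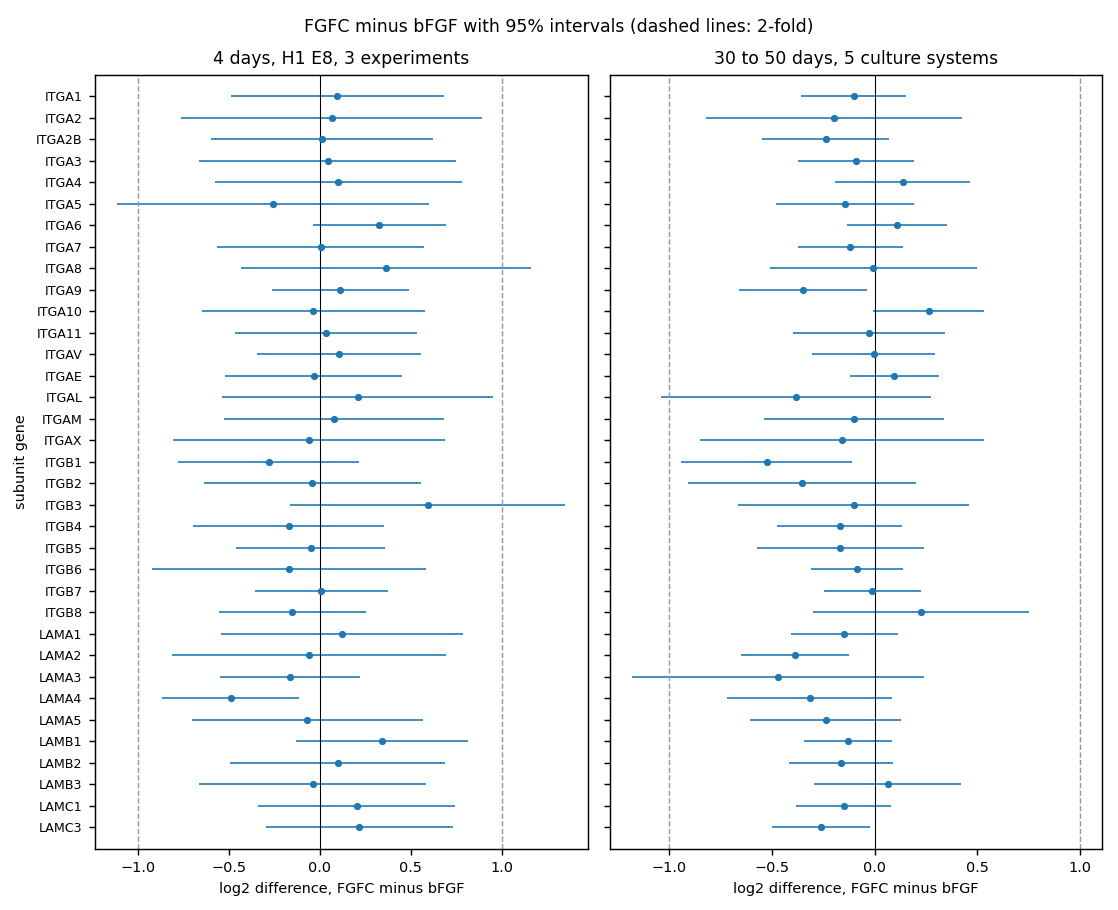
Difference FGFC minus bFGF (log2, horizontal axis) of each of the 35 subunits with its 95% interval from limma, after 4 days in 3 experiments with H1 (left) and after 30 to 50 days over 5 culture systems (right), with dashed lines at 2-fold. Most intervals cross 0 and lie between the dashed lines, and the exceptions past a dashed line are ITGA5, ITGA8 and ITGB3 on the left and ITGAL and LAMA3 on the right.

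Between feeder and feeder-free culture systems, 0 of 35 subunits and 0.0% of all probes passed (limma on 1 mean per system, 2 against 3 systems), with 1 subunit and 2491 probes at an unadjusted p below 0.05. The intervals were wide, and only 3 of 35 lay within 2-fold. Line, medium, FGF concentration, feeder cells and slide differed together between the systems and cannot be told apart. The median over all probes was -0.21, against -0.27 over the subunits.

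Of the 6 subunits with the largest differences, taken where all arrays of the higher group were well above background, LAMB1 was the one at an unadjusted p below 0.05. Its system means on feeder cells were 3.42 (KhES-1) and 2.92 (201B7), and those without feeder cells were 2.26 (H1, E8 Medium), 2.24 (H1, MEF-conditioned medium) and 1.97 (253G1). By culture, the lowest, median and highest levels were 2.53, 3.23 and 3.53 over the 6 feeder cultures and 1.89, 2.15 and 2.62 over the 9 feeder-free ones. Both feeder systems were above all 3 feeder-free systems by mean, although the 201B7 pre-culture at 2.53 lay below the H1 pre-culture in E8 Medium at 2.62. The difference was 1.01 (95% interval 0.20 to 1.82, adjusted p = 0.833, limma).

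The other 5 were lower on feeder cells. The integrin alpha chains among them were ITGA7 and ITGA3, laminin receptors, and ITGA5, the fibronectin receptor chain. ITGA7 had means of 3.15 and 3.58 in KhES-1 and 201B7 against 4.14, 4.30 and 3.75 in the E8 and MEF-conditioned cultures of H1 and in 253G1. ITGA5 had means of -1.72 and -1.75 against -1.12, -0.86 and -1.23, and ITGA3 had -1.67 and -2.06 against -1.52, -0.79 and -1.33, in the same order. By mean the feeder systems lay below the feeder-free ones in all 3, with differences of -0.70, -0.66 and -0.65 (adjusted p = 0.8389, 0.833 and 0.8533, limma). By culture ITGA7 did not overlap (3.13, 3.28 and 3.71 against 3.74, 4.16 and 4.42 as lowest, median and highest), whereas ITGA5 (-1.89, -1.76 and -1.52 against -1.84, -1.06 and -0.28) and ITGA3 (-2.38, -1.84 and -1.39 against -2.04, -1.16 and -0.62) did.

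The laminin chains LAMB2 and LAMA1 were also lower on feeder cells. LAMB2 had means of 2.45 and 2.72 against 3.56, 3.99 and 2.75, and LAMA1, an alpha chain of the early embryo, had 2.07 and 1.90 against 3.18, 2.65 and 2.02. For both, 253G1 lay close to the feeder systems, and the LAMA1 means overlapped. By culture LAMB2 ran over 2.35, 2.54 and 2.87 against 2.63, 3.54 and 4.03, and LAMA1 over 1.51, 2.06 and 2.14 against 1.82, 2.61 and 3.57, so that both overlapped. The differences were -0.85 and -0.63 (adjusted p = 0.8418 and 0.8727, limma).

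Larger differences were seen between single systems, which with 3 related cultures each allow no test and are given at a 2-fold threshold. In every pair below medium, FGF concentration and slide differed together. Line and feeder cells differed too in the KhES-1 and hiPSC pairs, and none of these can be told apart. H1 in MEF-conditioned medium against H1 in E8 Medium had 9 of 35 subunits past 2-fold, 6 higher and 3 lower, where 22.2% of all probes were past it (4.71% higher and 17.4% lower). Of the 6 that were higher, 4 were laminin alpha chains. LAMA3 was at -0.79, -0.49 and -0.54 in the pre-culture, bFGF and FGFC cultures in MEF-conditioned medium and at -2.36, -3.06 and -4.95 in E8 Medium (the pre-culture of experiment 1 and the 30-day cultures, difference 2.85). LAMA2 was at -1.32, -0.78 and -0.99 against -2.47, -3.17 and -3.87, and LAMA4 at -0.92, -0.67 and -1.16 against -2.75, -2.93 and -3.43.

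These 3 alpha chains were higher in every culture in MEF-conditioned medium than in the 3 cultures in E8 Medium, and so was LAMA5 (1.50, 2.21 and 1.85 against 1.32, 0.71 and -0.08), although other H1 cultures in E8 Medium with an FGF reached 1.77 for LAMA5. ITGB1 was at 2.26, 2.25 and 2.27 against 1.66, 1.00 and 0.03, and ITGA9, a chain of receptors for tenascin and osteopontin, was 1.31 higher. ITGA8, ITGB3 and ITGB6 were the 3 lower subunits, and were not well above background in either system. LAMB1 did not separate these 2 H1 systems, with means of 2.24 and 2.26. Without the 30-day FGFC culture in E8 Medium, left out after the data were seen, LAMA3 was 2.10 higher, LAMA5 and ITGB1 were 0.84 and 0.93 higher, and 4 subunits (LAMA2, LAMA3, LAMA4 and ITGA9) were past 2-fold higher and 5 lower.

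Among the integrin ligands 7 of 20 were higher in MEF-conditioned medium and 1 lower, with SPP1 (osteopontin) 5.54 higher. NTN4 (netrin-4) and NPNT (nephronectin) were 3.76 and 3.11 higher, but each was well above background on only 1 of the 6 arrays in E8 Medium. The summed level of the liver and yolk sac markers was 3.80, 3.09 and 4.15 in these cultures against -0.41, 0.81 and 0.99 in E8 Medium, with AFP the brightest. That of muscle markers was 3.45 to 3.84 against 0.45 to 1.28, and that of the fibroblast markers was 6.06 to 6.16 against 5.62 to 5.94. Pluripotency markers were at 8.91 to 8.97 against 8.58 to 9.19. The part of these markers in the subunit differences was not tested.

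KhES-1 on feeder cells against H1 in E8 Medium had 10 of 35 subunits past 2-fold, 4 higher and 6 lower, where 31.6% of all probes were past it (4.23% higher and 27.4% lower). The 4 higher subunits were all laminin chains. LAMA4 was at -1.20, -1.60 and -1.36, and LAMA2 at -1.74 to -2.09, above their levels in E8 Medium given above, LAMB1 was 1.16 higher, and LAMA3 was 1.20 higher but overlapped. Without the 30-day FGFC culture in E8 Medium, which was the lowest of the 3 for LAMA3, LAMA2 and LAMA4 and was left out after the data were seen, LAMA3 was 0.45 higher and LAMA2 0.94 higher, and 2 subunits (LAMA4 and LAMB1) were past 2-fold higher and 9 lower. ITGA2B, ITGB7, LAMA1 and LAMB2 were lower by 1.10 to 1.19, and ITGAL and ITGB6 were not well above background in either system.

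For the hiPSC lines, 201B7 on feeder cells against 253G1 in E8 Medium had 5 of 35 subunits past 2-fold, 4 higher and 1 lower, where 17.6% of all probes were past it (9.33% higher and 8.29% lower). ITGB1 was at 3.54, 2.27 and 1.29 in the pre-culture, bFGF and FGFC cultures of 201B7 and at 0.98, 0.57 and 0.27 in those of 253G1. ITGA11, a collagen receptor chain of fibroblasts, was at -1.74, -2.61 and -3.29 against -3.53, -3.70 and -3.47. The 201B7 pre-culture was the highest of all undifferentiated cultures for both, and its FGFC culture was the lowest of the 3. The 75th percentile of the array signal ran the opposite way in 201B7. It was 182 and 234 in the pre-culture, 505 and 504 with bFGF, and 558 and 632 with FGFC. The part of this signal scale in the ITGB1 and ITGA11 levels was not tested. LAMA2 was 1.48 higher in 201B7, and ITGAM, a leukocyte chain, was at least 2.25-fold higher, being well above background on no 253G1 array. ITGB2 was not well above background in either.

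The summed level of the fibroblast markers in 201B7 had the order of its ITGB1 and ITGA11 levels. It was 8.02, 7.19 and 6.29 in the pre-culture, bFGF and FGFC cultures, and 5.34 to 6.16 in the other undifferentiated cultures that had received an FGF. DCN (decorin) was at 7.08, 6.28 and 4.85 in 201B7, and at -2.09 or lower in all other undifferentiated cultures, while COL3A1, COL6A3 and LUM were not well above background in the 3 cultures. Of the 12 markers 3 were past 2-fold higher than in 253G1 and 2 were lower, and those 2 ran in the opposite order in 201B7 (PDGFRB at -2.58, -2.52 and -2.36, S100A4 at -0.28, -0.13 and 0.29). The summed levels of muscle markers (3.20, 1.94 and 1.56) and leukocyte markers (0.20, -0.49 and -0.85) and the neuronal marker STMN2 (2.51, 1.04 and -0.06) had the same order as ITGB1 and ITGA11. On feeder cells KhES-1 had summed fibroblast marker levels of 5.34 to 5.52. Whether RNA of the mouse feeder cells adds to any probe here was not tested, nor was the part of any of these markers in the ITGB1 and ITGA11 levels.

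**Figure D4:**
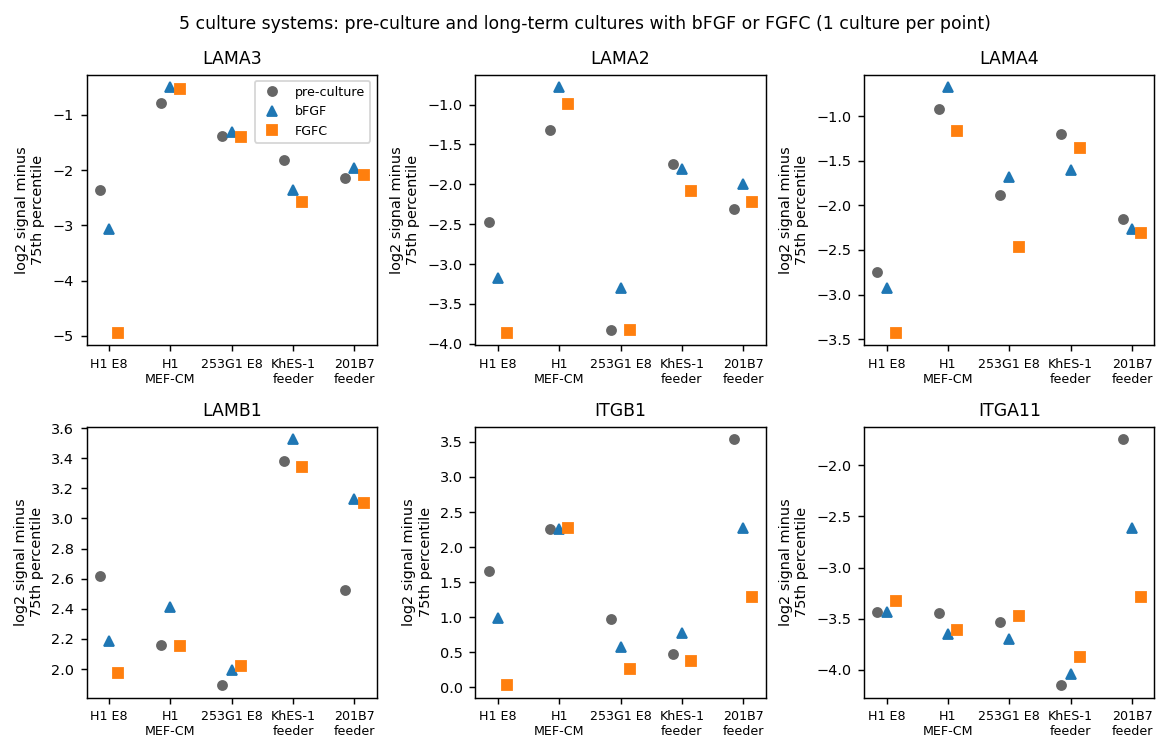
Level (log2 signal minus the 75th percentile of the array) of 6 subunits in the pre-culture, bFGF and FGFC long-term cultures of 5 culture systems, each point being 1 culture, so that no error is drawn. LAMA3, LAMA2 and LAMA4 were highest in H1 in MEF-conditioned medium, LAMB1 was highest in KhES-1, and ITGB1 and ITGA11 in 201B7 were highest in the pre-culture and lowest with FGFC.

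In the differentiated H1 culture 18 of 35 subunits differed 2-fold or more from the mean of the 7 undifferentiated H1 cultures in E8 Medium with bFGF, 13 higher and 5 lower, where 29.6% of all probes did (13.5% higher and 16.0% lower). They were 13 of 25 integrin chains (9 higher and 4 lower) and 5 of 10 laminin chains (4 higher and 1 lower). The median difference was 0.33 over the subunits and -0.18 over all probes. With 1 differentiated culture there was no test, and the range of the 7 cultures is given as the measure of spread. The study's methods formed embryoid bodies in a medium with serum replacement, not in E8 Medium on Matrigel. The differentiated arrays were also alone on slide 17. Medium, substrate and slide therefore cannot be told apart from differentiation.

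The 2 largest differences were of integrin chains that were not well above background in any of the 7 cultures. ITGA8, which pairs with ITGB1 as a receptor for nephronectin, was at -0.93 in the differentiated culture and at -7.87, -7.05 and -6.53 (lowest, median and highest) in the 7, at least 30.1-fold higher. Its ligand NPNT was 7.33 higher. ITGB6, the epithelial partner of ITGAV, was at -1.21 against -6.94, -6.26 and -5.61, at least 23.8-fold higher, and ITGAV itself was 1.40 higher.

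The collagen receptor chains ITGA11 and ITGA1 were also far outside the range of the 7 cultures. ITGA11 was at -0.11 against -3.67, -3.44 and -3.08 (a 10.2-fold difference), and ITGA1 at -0.69 against -3.44, -3.16 and -2.89 (5.48-fold). ITGB4, which pairs with ITGA6 in the hemidesmosomes of epithelia, was at 2.01 against -1.28, -0.60 and -0.55 (7.08-fold). Its partner ITGA6, in contrast, was 1.26 lower, at 1.13 against 2.13 to 2.66.

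Of the laminin chains, LAMB1 was at 4.58 against 2.01, 2.26 and 2.66 (4.79-fold higher), LAMB3 at -0.19 against -3.33, -2.34 and -1.94 (4.73-fold higher) and LAMA4 at -0.49 against -3.15, -2.75 and -2.57 (5.00-fold higher). All 3 lay above the 7 cultures. For LAMA4, a pair of other probes were 2.97 and 2.93 higher, but a further one was 1.84 lower, so the LAMA4 difference depends on the probe. LAMA2 was 1.56 higher.

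Further integrin chains past 2-fold were ITGB8 (2.06 higher), ITGA4 (1.96 higher) and ITGA2 (1.17 higher). On the lower side, LAMC3 was at -0.39 against 1.46, 1.66 and 1.91, ITGB5 was 1.67 lower, the platelet chain ITGA2B was 1.57 lower, and ITGAM was at least 3.02-fold lower. The remaining 17 subunits included ITGB1 (0.82 against 0.72 to 1.66), LAMA5 (1.12 against 0.71 to 1.77) and LAMC1 (2.28 against 1.60 to 2.32), which lay inside the range of the undifferentiated cultures.

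Some chains that moved on FGF withdrawal stood differently here. LAMC3 was lower and LAMB1 and ITGB8 were higher in both the cultures without FGF and the differentiated culture. LAMB3 fell without FGF but was the highest of all cultures in the differentiated one, and LAMA3, which fell without FGF, was at -2.30 beside -3.06 to -2.36 in the 7 cultures. The 4-day bFGF cultures were part of the reference in both comparisons. Set against the 3 cultures without FGF, the differentiated culture was 0.87 higher in LAMB1, 3.21 higher in LAMB3 and 3.19 higher in ITGB4.

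The matrix around these receptors was higher as well in the differentiated culture, with 14 of 20 ligands past 2-fold, all higher, led by NPNT, FN1 (4.70) and TNC (3.81). Of 24 adhesion genes 6 were higher, among them PARVA (2.84), and 3 were lower, among them VCL (1.92 lower). Markers of many cell types were present: 10 of 12 fibroblast markers were higher and 1 lower (summed level 7.99), all 4 liver and yolk sac markers were higher (5.76), all 4 neuronal markers were higher (5.67) and 4 of 5 surface epithelium markers were higher (7.23), KRT5 by at least 162-fold and KRT14 by at least 72-fold. Some sums rest on genes that were bright elsewhere. KRT18, the brightest epithelial marker, was at 6.98 against 6.10 to 6.56 in the 7 undifferentiated cultures. TUBB3 was at 4.37, below the 4.97 to 5.40 of H1 in MEF-conditioned medium. The fibroblast sum was close to that of the 201B7 pre-culture given above. Of 6 pluripotency markers 5 were lower. Their part in the subunit differences was not tested, and a change in cell types and a change within cells cannot be told apart in this culture.

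**Figure D5:**
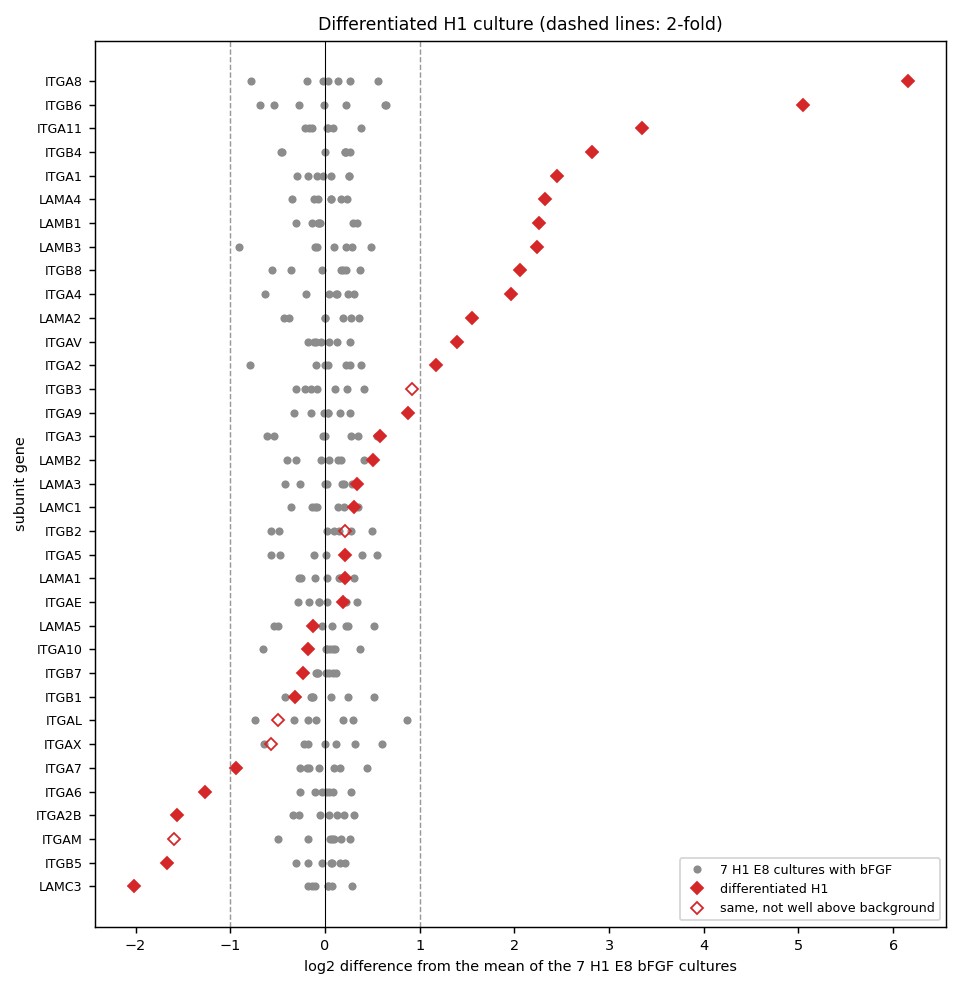
Log2 difference of the differentiated H1 culture (diamonds) from the mean of the 7 undifferentiated H1 cultures in E8 Medium with bFGF for each of the 35 subunits, with these 7 cultures as grey points and dashed lines at 2-fold. An open diamond marks a subunit not well above background on either array of the differentiated culture. ITGA8 and ITGB6 lie farthest to the right and LAMC3 farthest to the left, and the 7 cultures spread by less than 2-fold around their mean for every subunit.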

How the data were processed

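RNA of 27 cultures was measured on 54 one-colour Agilent 60K arrays, 2 per culture. The authors deposited scanner files of signal intensity, made by Agilent Feature Extraction 10.7.3.1 (named in the submitters' processing notes and the file headers), with background-subtracted processed signal intensities and yes or no marks, which the deposited files give for saturation, outlier spots and signal well above background. The deposited series table held the same signal intensities as the scanner files (3400704 of 3400704 values, relative tolerance 1e-06). The study's methods set signals below 1 to 1, normalised each array to its 75th percentile and called genes at a 2-fold difference of averages.

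Here, control spots (4259 of 62976) and spots marked as outliers (between 266 and 623 on an array) were dropped, spots of a probe were averaged, signals were floored at 1.0 (the lowest was 1.75), and log2 values were taken minus the 75th percentile of the array. No detection filter was applied. The 75th percentile of the signal ranged from 182 to 914 over the arrays, and the lowest values were those of the 201B7 pre-culture. Arrays of a culture were averaged before all fits. Probes were named through the RefSeq accession in the files, which gave 25715 of 42405 probes 1 gene symbol. The number of arrays limits the precision.

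Differences were tested with limma 3.58.1 (lmFit and eBayes) in R 4.3.3 on all 42405 probes with Benjamini-Hochberg adjustment at 0.05. The 4-day comparisons used the 12 H1 cultures of the 3 experiments without a block, the long-term comparison used the system as a block, and the feeder comparison used 1 mean per system. The differentiated culture and pairs of systems had no test. Values in every culture were printed for subunits past the test, the 6 largest differences of the feeder comparison where all arrays of the higher group were well above background (as system means and ranges) and the 8 largest of the differentiated culture, and for genes of the other lists (integrin ligands, adhesion complex, cell type markers) for up to 3 rises and 3 falls. Other subunits are named for their role, and were chosen after their values were seen. The members and the lists were chosen with earlier results of these data known. Where a group was not well above background on any array, a fold is a lower bound against the lowest signal well above background on each array, or the probe's own signal if higher. The fits were tested on simulated data. Python 3.11.15, pandas 2.3.3 and matplotlib 3.10.9 were used.

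Alternatives were normexp background correction (offset 50), quantile normalisation, the first or the second array alone, outlier spots kept, the mean over a gene's probes, a filter on detection, the experiment as a block, the slide as a random block, only the groups compared, and each experiment or system left out. Leaving out the 30-day FGFC culture in E8 Medium was added after seeing the data. The arrays were on 17 slides. The pre-cultures of the 3 experiments were on other slides than most of the 4-day cultures. Experiment numbers came from the labels. For 5 arrays of experiment 3 the 2 passage labels differ, and in experiment 2 the pre-culture was labelled with an earlier passage than the 4-day cultures.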

Additional observations from a re-analysis of the deposited data

Results flagged for a closer look

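Of 70 groups of 4 to 10 cultures or differences examined for a single value far from the rest, 5 had one, and chance alone gives about 1 in 20 such groups. In the 7 H1 cultures in E8 Medium with bFGF, the 30-day culture was the lowest in LAMB3 (gap 0.577 of the whole range), ITGA2 (0.5972) and ITGA10 (0.6517). LAMB3 was at -3.33 there, ITGA2 at -6.02 and ITGA10 at -4.46. ITGA2 was not well above background in that culture. Among the FGFC minus bFGF differences of the 5 long-term systems, LAMA3 in H1 in E8 Medium stood apart (gap 0.9092 of the range, difference -1.89 against -0.05 to -0.21), as did ITGA11 in 201B7 (0.7863, difference -0.68 against 0.04 to 0.23).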

How the results depend on the processing

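LAMC3, LAMA3 and ITGB8 kept their calls without FGF, against bFGF and against FGFC, under every alternative run, and no result changed direction. The count of 6 subunits for no FGF minus bFGF ranged from 3 to 7 over the alternatives and from 3 to 5 when each experiment was left out (3 without experiment 2). That of 5 for no FGF minus FGFC ranged from 3 to 7, and from 3 to 5 when each experiment was left out (3 without experiment 2 and 3 without experiment 3). Among all probes, 10.1% to 23.6% passed against bFGF over the alternatives, and 3% to 8.38% when each experiment was left out. Against FGFC these shares were 6% to 23.8% and 2.29% to 9.05%. With the experiment number as a replicate block the counts were 6 and 5, the same subunits, and 0 for FGFC minus bFGF. Deviations of cultures of the same experiment correlated by -0.16 to 0.51 (median 0.18), with 13 of 18 correlations over 0.1, against a median of -0.11 and 4 of 36 between experiments. Since not every pair was over 0.1, the numbers were not used to pair the cultures. With the slide as a random block the counts were 7 and 7, where 15.9% and 14.4% of all probes passed. With the filter on detection they were 7 and 7, where 23.6% and 23.8% of the probes kept passed.

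The differentiated culture had 15 to 19 subunits past 2-fold, where 13.5% (normexp correction) to 31.8% (filter on detection) of the probes were past it. With normexp correction ITGA8 was 2.75, ITGB6 2.03 and ITGA11 2.46 higher there. Calls for LAMB3, LAMB1 and ITGB1 each failed in at least 2 settings. FGFC minus bFGF, after 4 days and in the long term, and feeder minus feeder-free gave 0 subunits under every alternative, although with normexp correction 506 probes passed in the last. The median of all probes in the feeder comparison was -0.21 with the 75th percentile, -0.03 with quantile normalisation and 0.15 with normexp correction. The cause of these shifts was not tested. Subunits near background, such as ITGA8, ITGB3 and ITGB6, have no reliable difference among undifferentiated cultures.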
